A study of Mus musculus with 14 samples.

Results

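The step from d4 to d6 of embryoid body (EB) differentiation was described in the control line of the series, from the raw read counts of the libraries shLacZ d4 and shLacZ d6. These are 2 of 14 libraries, chosen by their labels alone, with 1 library per line and day. EBs are balls of mouse embryonic stem cells (ESCs) that differentiate spontaneously, without added lineage factors. The ESCs carried an shRNA against LacZ, a bacterial gene that mouse cells lack, and were grown undifferentiated with LIF and 2i. The second line of the series carried an shRNA against DIS3L2, an exonuclease that degrades uridylated RNAs, and went through the same days. Differentiation was started in both lines by withdrawing LIF and 2i and forming hanging drops with serum, and the EBs were later kept in suspension on a non-adhesive coating. Both lines were made from ESCs with an Osr1-GFP reporter, each group is 1 stable shRNA line, and each library is polyA RNA of whole EBs of 1 day. With 1 library per day the change has no replicate check, no p-value is given, and every interval below is 95% by Clopper-Pearson, taken on how the reads of a gene divide between the libraries, and covers counting error only. In such bulk samples, fewer cells of a type and less RNA per cell cannot be told apart.

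In the mouse embryo, cells of the epiblast pass through the primitive streak under Wnt, Nodal and FGF signals and become mesoderm or definitive endoderm. Brachyury (T), Mixl1, Eomes and Mesp1 mark that passage. The mesoderm that leaves the streak forms lateral plate, heart, blood and vessels, and the Hox genes, arranged in clusters, are switched on along the body axis. The visceral endoderm, an extraembryonic epithelium that absorbs nutrients and secretes serum proteins, forms the outer layer of many EBs and lays down a basement membrane.

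The 2 libraries held 7178712 reads on genes at d4 and 13304344 at d6, and the d4 library was the shallowest of the 14, which ran up to 39888099 reads. A count of 3 reads, used as the floor for a gene listed at 0, stands for 0.418 CPM (reads scaled to a common library total) at d4 and 0.225 CPM at d6. Protein-coding genes took 88.1% of the reads at d4 and 88.4% at d6, and processed pseudogenes took 10.4% and 9.90%. Dis3l2, the gene targeted in the other line, was counted with 158 reads at d4 and 316 at d6 in shLacZ. These are 22.0 and 23.8 CPM, a 1.08-fold difference whose interval (0.889 to 1.31) includes no change, and the level lay between 15.8 and 28.7 CPM over the 7 shLacZ days. In shDIS3L2 it was 7.05 CPM at d4 and 13.1 CPM at d6.

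Of 13280 protein-coding genes with at least 1 CPM in 1 of the 2 libraries, 638 were at least 3-fold higher at d6 (4.8%) and 779 at least 3-fold lower (5.87%). These shares are the background of every count in a gene list below. No call or a single call in a short list lies near them. Below, "rose" and "fell" are used only of genes past this 3-fold criterion, and CPM is a level relative to the library total. Over all compared genes the log2 fold had a median of -0.06, and 64.1% of them lay within 1.5-fold of no change. The genes that rose were the more highly expressed of the 2 groups. Their median CPM in the higher library was 8.57, against 4.18 for the genes that fell, and among genes with at least 10 CPM in 1 library 293 rose and 232 fell. With at least 100 CPM, 66 rose and 34 fell. In all, the genes that rose took 0.943% of the reads at d4 and 4.09% at d6, and those that fell took 1.66% at d4 and 0.326% at d6. Among all 13280 compared genes, 8250 (62.1%) had an interval that excludes 1. So had 622 of the 638 rises and 769 of the 779 falls. These were picked by their fold in the same reads, so that their counts describe and test nothing. For 268 rises and 293 falls the interval lay wholly beyond 3-fold. Between 2.7-fold and 3-fold lay 213 genes just outside the criterion, and between 3-fold and 3.3-fold lay 162 just inside it. At d4, 42 of the genes that rose had no read, and for 7 of them the bound against the floor was under 3-fold. A further 165 of the genes that rose had 1 to 3 reads at d4. At d6, 15 of the genes that fell had no read.

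**Figure D1:**
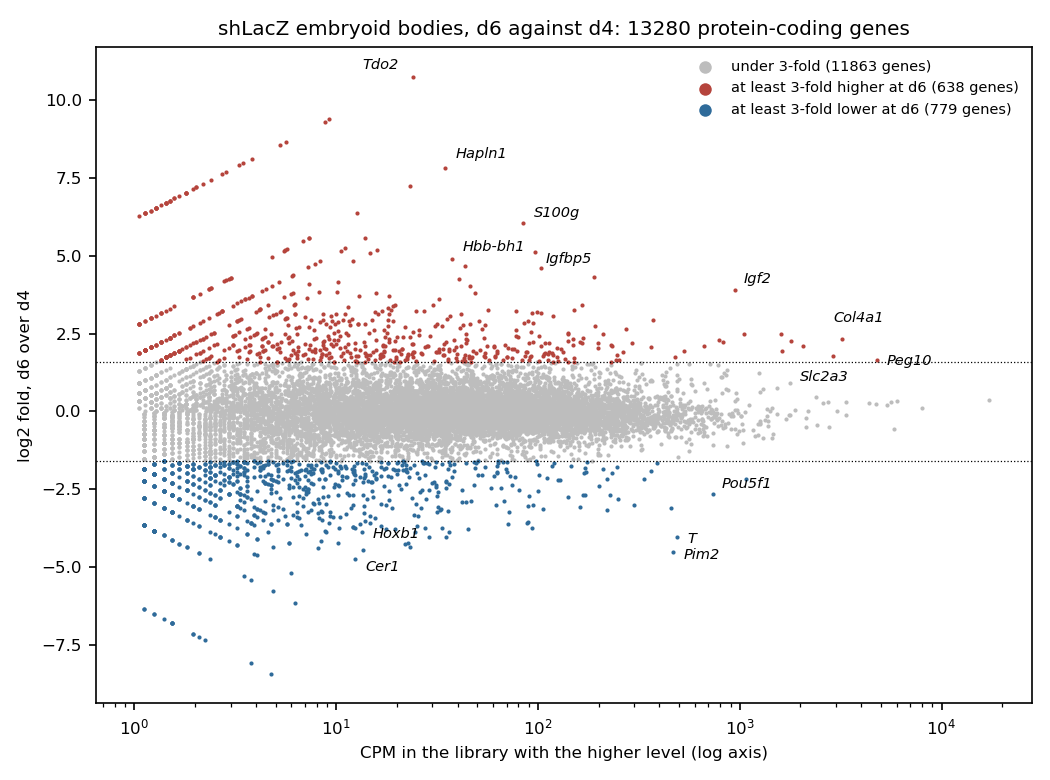
Log2 fold of d6 over d4 in shLacZ (vertical axis) against the CPM in the library with the higher level (horizontal log axis) for 13280 protein-coding genes, 1 point per gene and 1 library per day. The 638 genes above the upper dotted line were at least 3-fold higher at d6 and the 779 below the lower line at least 3-fold lower. The lines of points at the left are genes with 0, 1, 2 or few reads in 1 library.

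The 10 largest rises among genes with at least 10 CPM, ranked with 3 reads in place of any lower count, included matrix, blood and Hox genes. Hapln1, a link protein that holds hyaluronan matrix together, went from 1 read to 460 (0.139 to 34.6 CPM), a ratio of 248 with an interval of 44.3 to 9825. S100g, a calcium-binding protein of absorptive epithelia, went from 9 reads to 1127 (1.25 to 84.7 CPM, 67.6-fold, 35.5 to 148). Tdo2, which degrades tryptophan, had 0 reads at d4 and 318 at d6, at least 57.2-fold higher. Such genes were close to absent at d4, so that the upper end of each ratio is poorly bounded. Ctla2a, a cysteine protease inhibitor with a close copy beside it, went from 1 read to 308, and Snai2, a repressor of epithelial genes, from 3 to 211. Igfbp5, a binding protein of insulin-like growth factors, was the only 1 of the 10 with 20 or more reads at d4. It rose from 20 reads to 1285 (2.79 to 96.6 CPM, 34.7-fold, 22.4 to 56.9). The other 4 were Hba-x, Hbb-bh1, Hoxa9 and Hoxd9, given with their groups below.

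The 10 largest falls had several roles, and 5 of them, Cer1, Hoxb1, Pcdh8, Dll3 and T, are known from the streak, its neighbours or the presomitic mesoderm. Cer1, a secreted inhibitor of Nodal and BMP, fell from 12.4 to 0.451 CPM (27.5-fold lower, 12.1 to 76.9). Pim2, a survival kinase, fell from 3369 reads to 271 (469 to 20.4 CPM, 23.0-fold lower, 20.4 to 26.2), which made it the best measured of the large falls with T. Hoxb1, the Hox gene first switched on in the streak, fell from 13.5 to 0.601 CPM (22.5-fold lower, 10.96 to 53.5). Nfasc, a cell adhesion protein of neurons, fell from 23.1 to 1.13 CPM. Trp73, a relative of p53, fell from 21.9 to 1.13 CPM. Pcdh8 and Dll3, both known from the presomitic mesoderm, fell 19.3-fold and 18.8-fold. Slc27a2, a fatty acid transporter, and Gbp2b, an interferon-induced GTPase with a near-identical relative, each fell 16.6-fold. T closed the group with a fall from 486 to 29.9 CPM (16.3-fold lower, 14.7 to 18.1).

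The 120 bases before the start site are shown for the 3 largest rises and the 3 largest falls that have a single entry in the promoter table, and for a pair of embryonic globin genes of which 1 rose and the other did not. The sequences are RefSeq's for GRCm38.p6, given 5′ to 3′ on the strand of the gene. Capitals mark 4 short motifs on either strand, none of which lies within another. The core promoter element known as the TATA box was searched as TATAAA. The motif of factors such as Gata1 in blood and Gata4 in endoderm was searched as GATAAG. Krüppel-like factors are known to bind the letters CACCC, which are common in globin promoters. The binding motif of Sp1, frequent in promoters of housekeeping genes, was searched as GGGCGG.
Hapln1, chr13:89540516-89540635, plus strand: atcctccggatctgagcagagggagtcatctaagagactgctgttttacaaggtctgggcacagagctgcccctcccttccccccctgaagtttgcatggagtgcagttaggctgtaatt
S100g, chrX:162964600-162964719, minus strand: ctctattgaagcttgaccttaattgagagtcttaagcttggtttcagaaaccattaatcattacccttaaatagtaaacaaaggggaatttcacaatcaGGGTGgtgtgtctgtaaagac
Tdo2, chr3:81975729-81975848, minus strand: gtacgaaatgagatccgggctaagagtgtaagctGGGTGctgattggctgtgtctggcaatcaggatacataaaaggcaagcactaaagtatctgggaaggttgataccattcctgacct
Cer1, chr4:82885152-82885271, minus strand: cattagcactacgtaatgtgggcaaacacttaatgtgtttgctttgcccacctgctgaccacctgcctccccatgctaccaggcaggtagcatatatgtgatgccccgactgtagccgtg
Pim2, chrX:7878186-7878305, plus strand: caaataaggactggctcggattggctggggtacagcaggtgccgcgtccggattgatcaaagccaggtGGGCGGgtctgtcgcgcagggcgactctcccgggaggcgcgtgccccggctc
Hoxb1, chr11:96365638-96365757, plus strand: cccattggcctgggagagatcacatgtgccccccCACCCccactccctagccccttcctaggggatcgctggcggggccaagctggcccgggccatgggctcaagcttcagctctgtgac
Hba-x, chr11:32276480-32276599, plus strand: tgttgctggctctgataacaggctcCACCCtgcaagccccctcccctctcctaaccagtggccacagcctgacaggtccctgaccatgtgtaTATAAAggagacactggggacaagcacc
Hbb-y, chr7:103853208-103853327, minus strand: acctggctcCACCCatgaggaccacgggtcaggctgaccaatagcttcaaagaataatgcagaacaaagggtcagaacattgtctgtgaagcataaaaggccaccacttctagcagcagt
Both globin windows hold CACCC, and TATAAA is in the Hba-x window alone among the 8. Over the whole 300-base windows of the table, GATAAG was found for 11.8% of the 451 genes that rose and have an entry, 5.30% of the 566 that fell and 6.36% of the 10226 compared. The percentages for TATAAA were 14.9%, 12.2% and 8.62%. Those for CACCC were 73.4%, 73.0% and 67.8%, and those for GGGCGG were 53.7%, 57.1% and 69.7%. Of all 32851 windows in the table, 7.44% held GATAAG, 13.6% TATAAA, 57.5% CACCC and 35.7% GGGCGG. These percentages describe letters and not binding.

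Genes of the primitive streak and early mesoderm went down together. Of 19 members compared, 16 fell and 1 rose, against 5.87% and 4.8% of all genes, with a median log2 fold of -2.79. The summed level of the list went from 1392 to 242 CPM. Mixl1, a homeobox gene of the streak, fell from 161 to 19.2 CPM (8.37-fold lower, 7.30 to 9.62). Eomes, a T-box gene needed for endoderm and heart mesoderm, fell from 300.2 to 37.0 CPM (8.12-fold lower, 7.36 to 8.97). Mesp1, which marks heart and vessel progenitors, fell from 16.7 to 1.28 CPM (13.1-fold lower, 7.84 to 23.2). The larger falls of the list were those of Mesp2 (19.5-fold), T, Sp5 (14.6-fold), Msgn1 and Lhx1 (13.4-fold each), so that transcription factors of the streak, the organizer and the presomitic mesoderm all lost most of their reads. Aplnr went from 57.1 to 29.99 CPM and Wnt3a from 11 to 8 reads, short of 3-fold. Cdx2, which patterns the posterior body and also marks trophoblast, was the exception and rose from 17.7 to 61.5 CPM (3.47-fold, 2.88 to 4.22).

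The pluripotency lists did not move as 1 block. Of the 12 general pluripotency genes 5 fell and none rose (median log2 fold -0.92), and of the 12 genes of the formative and primed epiblast 6 fell and none rose (median -1.83). Of the 14 naive pluripotency genes 1 fell and 3 rose (median 0.50). Pou5f1, the core pluripotency factor also called Oct4, fell from 740.2 to 117 CPM (6.31-fold lower, 5.96 to 6.68). Tdgf1, the Nodal co-receptor Cripto, fell from 459 to 52.9 CPM (8.67-fold lower, 7.99 to 9.42). At d6 they still had 1561 and 704 reads. Utf1 and L1td1 fell 3.23-fold and 3.12-fold. Sox2 went from 35.0 to 18.2 CPM and Lin28a from 663 to 390 CPM, neither past 3-fold. Among the epiblast genes, Pou3f1, Fgf5, Zic2, Otx2 and Foxd3 fell between 7.41-fold and 13.8-fold, and the de novo DNA methyltransferase Dnmt3b, the most abundant of the list, fell from 1079 to 240.1 CPM (4.49-fold lower, 4.31 to 4.68). The maintenance methyltransferase Dnmt1 went from 361 to 292 CPM. Nanog was the only naive gene that fell (169 to 43.0 CPM, 3.94-fold lower, 3.56 to 4.36). Klf4 rose from 8.78 to 43.8 CPM (4.99-fold, 3.85 to 6.58), Tbx3 from 46.1 to 150.3 CPM (3.26-fold, 2.90 to 3.67) and Dppa3 from 3 reads to 29. Klf4 and Tbx3 also work outside pluripotent cells, in epithelia and in lateral mesoderm. Esrrb (31.9 and 38.0 CPM), Zfp42 (48.9 and 65.6 CPM) and Tfcp2l1 (34.8 and 52.1 CPM) were slightly higher at d6 with intervals above 1, while at d0 Esrrb and Zfp42 had been at 383 and 400.3 CPM.

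**Figure D2:**
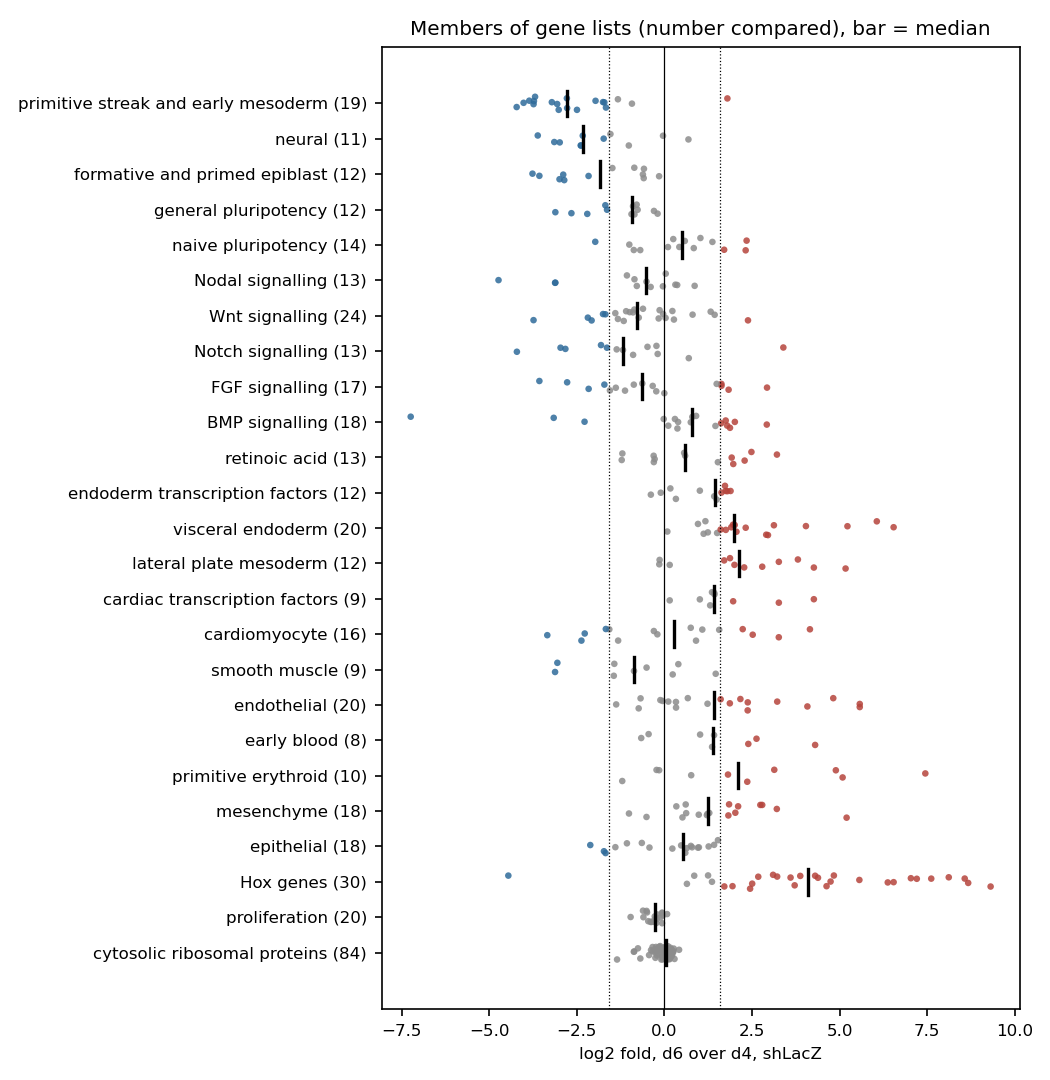
Log2 fold of d6 over d4 in shLacZ for the compared members of 25 gene lists (1 point per gene, number compared in brackets, black bar at the median of the list). Red points lie at least 3-fold above and blue points at least 3-fold below no change. The streak list has its median at -2.79, the Hox list at 4.09 and the list of cytosolic ribosomal proteins at 0.03.

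Among signalling genes, some ligands and inhibitors of Nodal and Wnt fell and 4 BMP ligands rose. Nodal itself fell from 106 to 12.1 CPM (8.73-fold lower, 7.35 to 10.4), and with Cer1 and Tdgf1 it made 3 falls and no rise among 13 compared genes of the pathway. The receptors Acvr1b and Acvr2a and the transducers Smad2 and Smad3 stayed within 3-fold. The targets Lefty1 (10.3 and 7.22 CPM) and Lefty2 (15.3 and 15.7 CPM) did so too. Of 24 Wnt genes 5 fell and 1 rose. The ligands Wnt8a (33.3 to 2.48 CPM, 13.4-fold lower), Wnt2b (4.59-fold lower) and Wnt3 (3.38-fold lower) and the secreted inhibitors Frzb and Sfrp2 fell. Wnt3 is a member of the streak list too, where it is counted again. Wnt5a, a ligand of non-canonical signalling, went from 31.1 to 83.9 CPM (2.70-fold), and the Wnt target and R-spondin receptor Lgr5 rose from 3.34 to 17.5 CPM (5.24-fold, 3.44 to 8.34).

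Of 18 BMP genes 6 rose and 3 fell (median log2 fold 0.77). The ligand Bmp5 rose from 6.69 to 50.7 CPM (7.59-fold, 5.66 to 10.4), Bmp4 from 17.1 to 62.7 CPM (3.66-fold, 3.02 to 4.46), Bmp6 4.05-fold and Bmp2 3.07-fold. The feedback inhibitors Bambi and Smad6 rose 3.46-fold and 3.36-fold. The 3 that fell all encode secreted antagonists, namely Fst (220.2 to 24.6 CPM, 8.96-fold lower), Chrd (15.0 to 3.08 CPM, 4.88-fold lower) and Grem1 (15 reads to 0, at least 9.27-fold lower). Of the direct targets, Id2 went from 38.9 to 106.6 CPM (2.74-fold) and Id1 and Id3 stayed at 1.31-fold and 1.23-fold. Of 17 FGF genes 4 rose and 4 fell, and the split ran between members. The epiblast ligand Fgf5, the streak ligands Fgf8 and Fgf17 and the feedback phosphatase Dusp6 (219 to 48.7 CPM) fell. The receptors Fgfr4 (2.37 to 18.1 CPM, 7.65-fold) and Fgfr2 (13.7 to 42.2 CPM) and the ligands Fgf15 and Fgf3 rose. Of 13 Notch genes 5 fell, among them the ligands Dll3, Dll1 (18.2 to 2.56 CPM), Jag1 and Jag2 and the glycosyltransferase Lfng. The effector Hey2, a regulator of vessels and heart ventricle, was the only 1 that rose (13 reads to 255, 10.6-fold, 6.08 to 20.2). Of 13 retinoic acid genes 5 rose and none fell, and these include the retinol dehydrogenase Rdh10 (23.0 to 86.96 CPM, 3.78-fold), the retinoid-binding Crabp1 (4.90-fold) and the retinol receptor Stra6 (3 reads to 53).

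The mesoderm lists beyond the streak differed, and most rises were in the lateral plate list. Of 12 lateral plate genes 9 rose and none fell (median log2 fold 2.14), with the summed level going from 118 to 531 CPM. Hand1, a basic helix-loop-helix factor of heart and extraembryonic mesoderm, rose from 15.7 to 151 CPM (9.62-fold, 7.96 to 11.7). Hand2, its paralog of the heart and limb, rose from 2.09 to 40.4 CPM (19.4-fold, 11.6 to 34.8). Foxf1, a factor of splanchnic mesoderm, rose from 3.48 to 49.0 CPM (14.1-fold, 9.45 to 21.9). The hindlimb factors Pitx1 and Tbx4 rose from 2 reads to 140 and from 29 to 261. Of 9 cardiac transcription factors compared, Hand1, Hand2 and Tbx20 (13.2 to 51.6 CPM, 3.90-fold) rose, and the other 6 were all above 1-fold without reaching 3-fold. Genes of the contractile apparatus of cardiomyocytes were few in reads and split, with 4 rises and 4 falls among 16 compared. Mybpc3 (4 reads to 135), Myh7 (13 to 114), Myl3 (3 to 55) and Tnni1 (5 to 54) rose. Actc1 (25.4 to 2.48 CPM), Ttn (10.2 to 1.95 CPM), Tnni3 and Myl7 fell. Myl3 shares exon bases with Pth1r on the opposite strand, which went from 142 to 1202 reads, and Tnni3 with Dnaaf3, which went from 75 to 53, so that the counts of both are uncertain. Of 9 smooth muscle genes Cnn1 (32.9 to 3.76 CPM) and Myl9 (32.0 to 3.83 CPM) fell, none rose, and Acta2 went the other way from 21.5 to 59.2 CPM (2.76-fold). Of 7 somite genes compared, the 3 that fell, Mesp2, Msgn1 and Tbx6, are also in the streak list.

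The Hox genes gave the largest list median, 4.09, or 3.15 when genes without a read at d4 were put at their bound against the floor. Of 30 compared, 25 rose and 1, Hoxb1, fell. At d4 the 39 Hox genes together held 34.4 CPM, of which Hoxb1 alone held 13.5, and 12 of them had no read. At d6 they held 158 CPM. The rises were spread over all 4 clusters, with 6 of 7 compared genes in Hoxa, 5 of 8 in Hoxb, 8 of 8 in Hoxc and 6 of 7 in Hoxd. By position along the cluster, 4 of 8 compared genes of paralog groups 1 to 4 rose, 9 of 9 of groups 5 to 8 and 12 of 13 of groups 9 to 13. The summed level of groups 1 to 4 went from 25.8 to 32.8 CPM, that of groups 5 to 8 from 1.95 to 46.8 CPM and that of groups 9 to 13 from 6.69 to 78.2 CPM. The sum of groups 1 to 4 includes the fall of Hoxb1. Hoxa9 went from 2 reads to 184, a ratio of 49.6 (13.5 to 413), and Hoxd9 from 1 to 169, a ratio of 91.2 (16.1 to 3623). Hoxc8 had 0 reads at d4 and 117 at d6, at least 21.0-fold higher. In shLacZ, Hoxa9 was lower again on the later days, at 6.03 CPM on d8 and 2.42 CPM on d10. Hoxc5 and Hoxc10 overlap in the annotation, and reads of Hox genes and their antisense transcripts cannot be told apart here, because the counting is not stated to use strand.

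**Figure D3:**
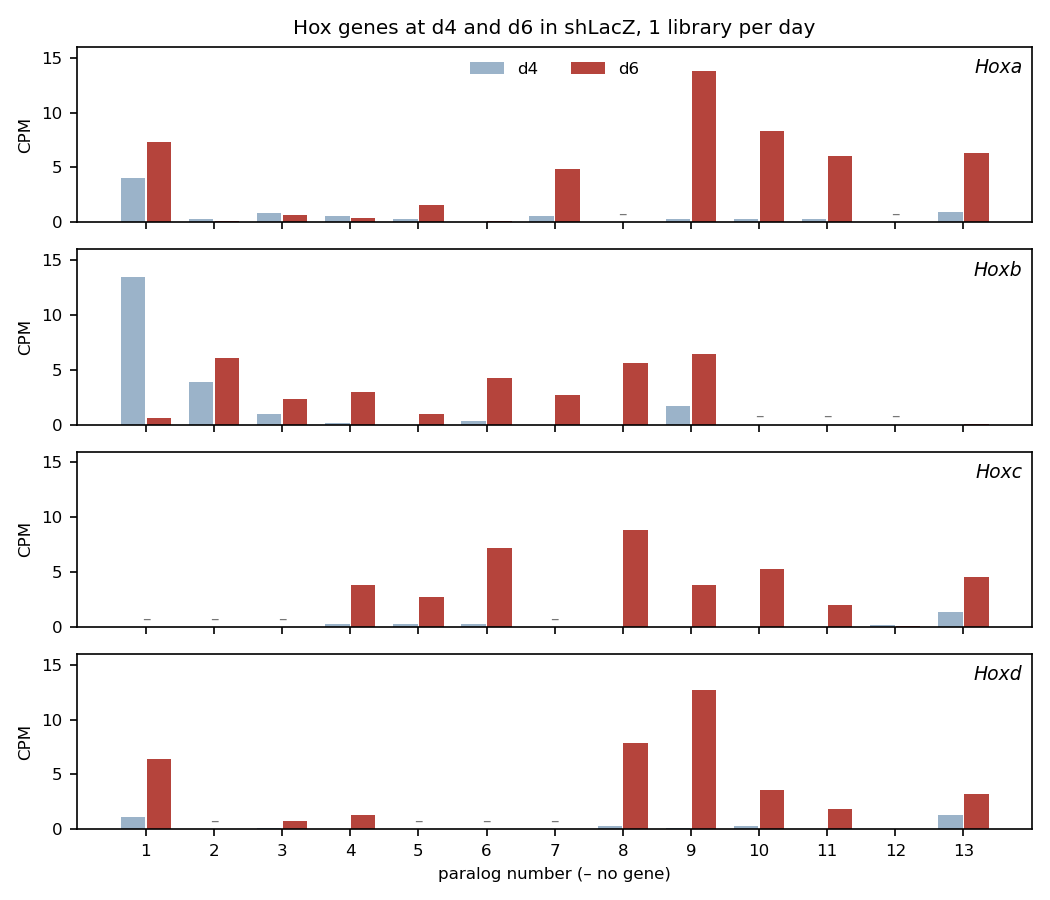
CPM of the Hox genes at d4 (blue bars) and d6 (red bars) in shLacZ, 1 library per day, by cluster (panels) and paralog number (horizontal axis). Hoxb1 stands at 13.5 CPM at d4 and 0.601 CPM at d6, and in groups 5 to 13 the d6 bars are the higher ones, except for Hoxc12 and Hoxd12 with at most 1 read.

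Parts of the blood and vessel lists rose, several of them from few reads. Of 10 primitive erythroid genes compared 6 rose and none fell (median log2 fold 2.09), and of 8 early blood genes 3 rose and none fell. Hbb-bh1, the beta-like globin of the first red cells, went from 9 reads to 501 (1.25 to 37.7 CPM, 30.0-fold, 15.7 to 66.1). Hba-x, the embryonic alpha-like globin zeta, went from 3 reads to 195 (0.418 to 14.7 CPM, a ratio of 35.1, 11.8 to 172). Hbb-y, the other embryonic beta-like globin, had 21 reads at d4 and 35 at d6 (2.93 and 2.63 CPM), so that a change was not detectable at this depth (0.899-fold, 0.509 to 1.63). Hbb-y therefore lacked at d6 the rise of the other 2 embryonic globins, and on d8 Hbb-bh1, Hba-x and Hbb-y stood at 325, 219.5 and 239 CPM. Hba-a1 (2 reads to 34) and Hba-a2 (6 to 58) are near-identical copies between which reads cannot be assigned with certainty. Alas2, the erythroid enzyme of heme synthesis, had no read at d4 and 32 at d6 (at least 5.75-fold higher), although it shares exon bases with Apex2, and the erythroid factor Gata1 went from 3 reads to 20. Tfrc, the transferrin receptor, is expressed in most dividing cells and held 311 of the 323 CPM of the list at d4 and 266 of 337 CPM at d6. Klf1, Epb42 and Slc4a1 had at most 11 reads at d6, and Rhag and Hemgn had none in either library.

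Tal1, the factor that commits mesoderm to blood, rose from 2.79 to 17.3 CPM (6.21-fold, 3.92 to 10.4). Lyl1 and Csf1r, the receptor of macrophage colony-stimulating factor, rose from 3 and 1 reads to 30 and 40, and Csf1r shares exon bases with Hmgxb3, which had 678 and 795 reads. Runx1 and Lmo2 went up 2.67-fold and 2.57-fold, and Gata2 and Myb were lower at 0.730-fold and 0.631-fold. The pan-leukocyte gene Ptprc and Tyrobp had no read on either day. Of 20 endothelial genes 10 rose and none fell (median log2 fold 1.42). Cdh5, the adherens junction protein of vessels, rose from 2.93 to 27.4 CPM (9.35-fold, 6.03 to 15.3), the angiopoietin receptor Tek from 4.46 to 23.2 CPM (5.21-fold, 3.61 to 7.75) and Pecam1 4.50-fold. Tie1, Erg and Fli1 had 3, 1 and 1 reads at d4 and 162, 97 and 97 at d6. The other 10 endothelial genes stayed short of 3-fold, and 5 of the 20 had a log2 fold below 0. Kdr, the VEGF receptor already present on early mesoderm, went from 68.8 to 109 CPM (1.59-fold), Etv2 from 12.7 to 7.89 CPM (0.623-fold, 0.466 to 0.834) and Eng from 36.1 to 21.6 CPM.

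By count, visceral endoderm genes were the largest block of rises outside the Hox genes. Of 20 compared 14 rose and none fell (median log2 fold 1.98, or 1.93 with genes at 0 at their bound), and the summed level went from 2188 to 6512 CPM. Afp, the fetal serum protein alpha-fetoprotein, rose from 11.8 to 88.8 CPM (7.50-fold, 6.01 to 9.46). Rbp4, which carries retinol in serum, rose from 2.79 to 46.0 CPM (16.5-fold, 10.6 to 27.2), and Ttr, which carries thyroid hormone, from 29.95 to 149.5 CPM (4.99-fold, 4.33 to 5.77). The endocytic receptor Cubn and its partner Amn rose from 417 to 1618 CPM (3.88-fold, 3.74 to 4.04) and from 9.06 to 36.4 CPM (4.02-fold). The protease Ctsh rose 7.76-fold, the apolipoprotein Apom 8.74-fold and the lipid transfer protein Mttp 3.37-fold. Of the 20, 6 stayed under 3-fold, of which Apob, Apoe, Lrp2, Dab2 and Apoa4 were between 1.94-fold and 2.83-fold and Apoa1 at 1.06-fold. Of 12 endoderm transcription factors 5 rose and none fell, among them Hnf4a (14.8 to 54.6 CPM, 3.70-fold), Sox17 (13.7 to 45.2 CPM, 3.31-fold), Sox7 (3.09-fold) and Cdx2, a gene of gut and posterior body that the streak list also holds, and Gata4 (71.6 to 192 CPM) and Gata6 went up 2.68-fold and 2.01-fold. Foxa2 (20.3 and 22.9 CPM) and Hhex (11.4 and 8.72 CPM), of the same list, stayed within 1.5-fold.

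Matrix genes rose selectively. Of 33 collagen genes 10 rose and 4 fell (median log2 fold 0.11). The basement membrane chains Col4a1 and Col4a2, which lie head to head, rose from 641 to 3212 CPM (5.01-fold, 4.86 to 5.17) and from 288 to 1602 CPM (5.57-fold, 5.33 to 5.83), and took most of the gain of the family from 1406 to 5405 CPM. Col4a5 and Col4a6 rose 4.68-fold and 3.45-fold. The fibrillar collagens Col1a1 (7.94 to 32.3 CPM, 4.07-fold) and Col3a1 (12.3 to 43.4 CPM, 3.54-fold) rose at far lower levels. Of 10 laminins 3 rose and 2 fell. Lama1, the alpha chain of the first basement membranes, rose from 177 to 830 CPM (4.70-fold, 4.43 to 4.98), and Lama4 6.88-fold, and Lamb1 and Lamc1, the partners of Lama1, went up 2.16-fold and 2.34-fold. Of 18 mesenchyme genes 8 rose and none fell (median 1.25), among them Zeb1 (5.02 to 33.5 CPM, 6.68-fold), Prrx1 (6.97-fold), Twist2 (9.44-fold), Pdgfrb (12.96 to 55.7 CPM, 4.30-fold) and Postn (5.85 to 21.0 CPM, 3.60-fold). Fn1, which the streak already makes, went from 2138 to 1498 CPM, and Lum was at 11 and 10 reads.

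Epithelial genes were divided. Of 18 compared none rose and 3 fell, which were Esrp1, a splicing factor of epithelia (98.5 to 30.7 CPM, 3.21-fold lower), Grhl2 (3.32-fold lower) and Rab25 (4.36-fold lower). Cdh1, the E-cadherin gene, went from 737 to 350.4 CPM (2.10-fold lower, 2.02 to 2.19). The keratins of simple epithelia went the other way, with Krt18 from 194 to 559 CPM (2.88-fold), Krt19 at 2.67-fold and Krt8 at 1.98-fold, and Cldn6 went from 179 to 429 CPM. Of 11 neural genes compared 7 fell and none rose (median -2.33), with Nes, an intermediate filament of neural and other progenitors, from 201 to 38.3 CPM (5.25-fold lower, 4.74 to 5.82), Map2 5.22-fold lower, Neurod1 from 39 reads to 8 and Elavl3 from 35 to 8. Nes held most of the summed level of this list, 304 CPM at d4 and 74.1 CPM at d6. Of 6 trophoblast genes compared Plac1 rose (14 reads to 248) and Eomes fell, while Elf5, Gcm1, Tpbpa and Prl3d1 had at most 6 reads in either library.

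Imprinted genes included several of the most abundant rises, and the noncoding members of these lists are counted here too. H19, a maternally expressed noncoding RNA, rose from 222 to 3189 CPM (14.4-fold, 13.7 to 15.1), and its neighbour Igf2, a paternally expressed growth factor, rose from 62.7 to 946 CPM (15.1-fold, 13.7 to 16.6). Of 14 genes expressed from the father 5 rose and 2 fell (median log2 fold 0.71), and of 11 expressed from the mother 2 rose and none fell (median 0.12). Peg10 rose from 1526 to 4764 CPM (3.12-fold, 3.06 to 3.19), Mest from 160 to 791 CPM (4.94-fold, 4.65 to 5.26) and Dlk1 3.41-fold. Airn rose from 11 reads to 240 and lies antisense to Igf2r, which went from 208 to 415 CPM. The cell cycle inhibitor Cdkn1c was the second maternal gene that rose (9.75 to 34.0 CPM, 3.49-fold). Snrpn (3.53-fold lower) and Magel2 (3.08-fold lower), both from the same chromosome 7 domain, fell, Snrpn sharing its exons with a second gene model, and Ndn, a gene of that domain, went from 29.5 to 56.8 CPM. Meg3, Rian and Mirg, which are transcribed from 1 locus, were at 0.959-fold, 0.955-fold and 0.856-fold. Igf2 shares exon bases with its antisense gene Igf2os, which had 30 reads at d4 and 316 at d6.

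No member of 3 lists of housekeeping and growth genes passed 3-fold, against 10.7% of all genes in either direction. Most members of these lists had at least 10 CPM in 1 library, where calls were rarer. Of 9689 genes at that level 293 rose and 232 fell. For the lists of 13 and 20 genes, an absence of calls is near that share. None of 84 cytosolic ribosomal protein genes rose or fell (median log2 fold 0.03), and the lowest was Rpl3 at 83.0 and 32.5 CPM (2.56-fold lower). None of the 13 mitochondrially encoded genes did, but all 13 were above 0 (median 0.27) and their summed level went from 42958 to 53245 CPM. None of 20 proliferation genes did, but 19 of them were below 0 (median -0.28), with Mki67 at 432 and 412 CPM, and the replication genes Mcm2 (427 and 282 CPM), Mcm3 (454 and 297 CPM) and Ccne1 (115 and 58.9 CPM) lower. Among 18 genes of glucose uptake and glycolysis, the glucose transporter Slc2a3 rose from 838 to 2892 CPM (3.45-fold, 3.36 to 3.55) and the lactate transporter Slc16a3 fell from 102 to 24.7 CPM, while Ldha went from 1468 to 896 CPM and Pkm from 2421 to 1792 CPM. Of the calcium sensors named in the study, the kinase gene Camk2a rose from 19 reads to 147 (4.17-fold, 2.58 to 7.13). Pkd1 (58.8 and 43.2 CPM), Pkd2 (64.9 and 49.1 CPM), Camk1, Camk1g, Camk2g and Camk4 stayed within 3-fold, and Rgn was under 1 CPM in both libraries. None of 16 genes of ER calcium handling and none of 15 genes of the SRP and Sec61 machinery, which targets nascent secreted proteins to the ER, rose or fell. Calr, the ER calcium store protein, went from 902 to 1534 CPM (1.70-fold) and Itpr1 from 159 to 67.9 CPM. Of 16 unfolded protein response genes only Chac1 fell (34.8 to 7.29 CPM). The list of Lin28, let-7 targets and uridylation had no rise and no fall among 14 genes.

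Over the 7 days of the line, T stood at 2.01 CPM at d0 and 1.63 at d2, reached 486 at d4 and was at 29.9 at d6 and 6.86 at d8. Mixl1, Eomes, Mesp1, Cer1 and Hoxb1 likewise had their highest level at d4. Of the 779 genes that fell, 332 (42.6%) had their highest shLacZ level at d4 and 321 (41.2%) at d2, as Dnmt3b and Pim2 did, and 92 (11.8%) at d0, against 16.1%, 22.4% and 22.3% of all compared genes. Of the 638 that rose, 147 (23.0%) were highest at d6 itself, among them Hand1, Hand2 and Hoxa9, and 182 (28.5%), 106 (16.6%) and 151 (23.7%) were highest at d8, d10 and d12. Over all compared genes these days had shares of 8.12%, 8.28%, 7.46% and 15.4%, in the same order. A fall or rise at this step is part of how these genes were picked, so the shares describe them and test nothing. Afp went on from 88.8 CPM at d6 to 1440.5 CPM at d10 and Col4a1 from 3212 to 16487 CPM at d12, while Hbb-bh1 passed through 325 CPM at d8 and was back at 2.28 CPM at d12. H19 reached 3189 CPM at d6 and stayed between 2798 and 3527 CPM afterwards.

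**Figure D4:**
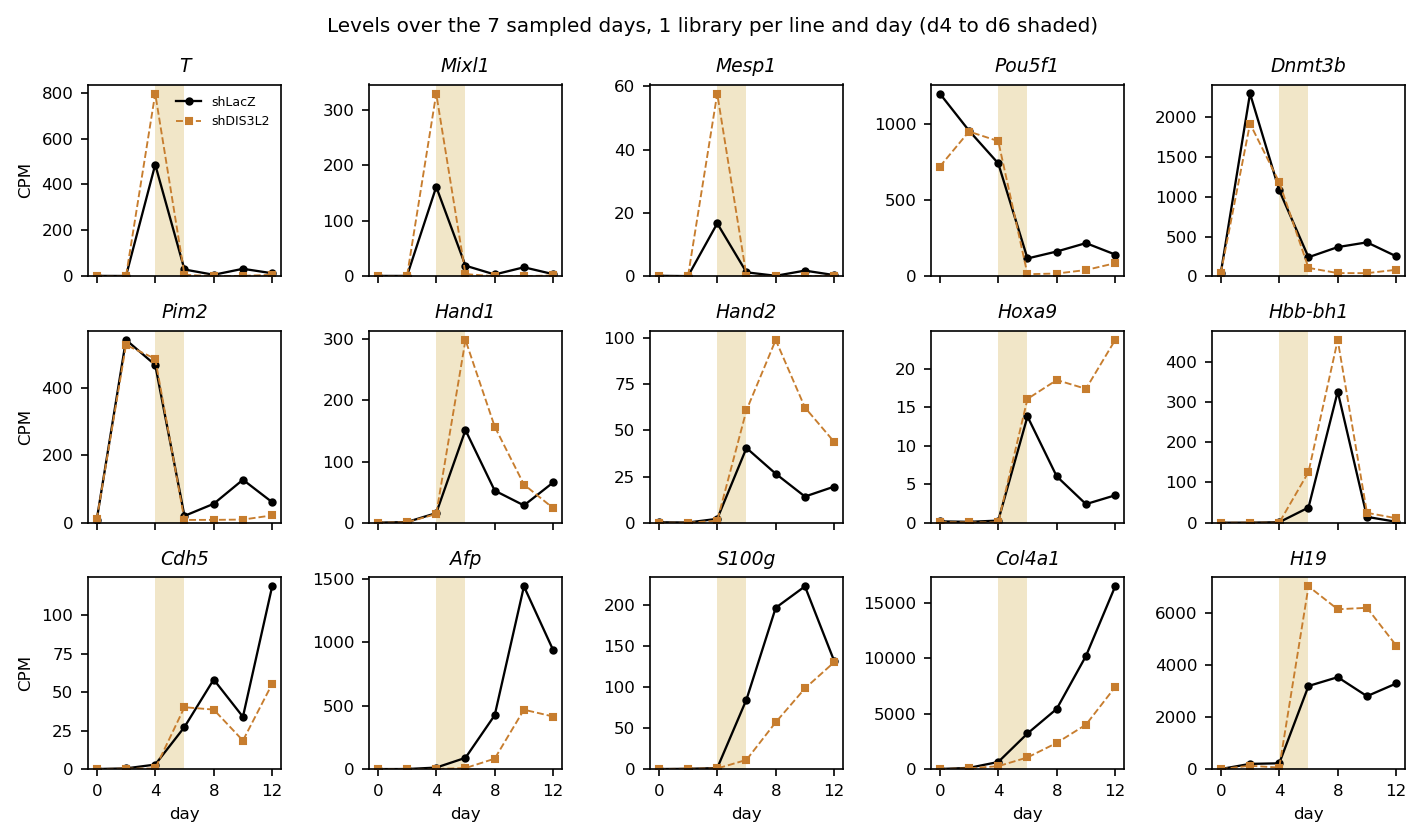
CPM of 15 genes (vertical axes, linear, from 0) over the 7 sampled days (horizontal axes) in shLacZ (black, solid) and shDIS3L2 (orange, dashed), 1 library per line and day with no error bar, and with d4 to d6 shaded. T, Mixl1 and Mesp1 are highest at d4, Hand1 is highest at d6, and Col4a1 goes on to 16487 CPM at d12 in shLacZ.

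In libraries that the step did not use, shLacZ d8 against shLacZ d2, 13.2% of 13891 genes passed 3-fold upwards and 10.4% downwards. Of the 638 genes that rose from d4 to d6, 497 (77.9%) were at least 3-fold higher at d8 than at d2 and 5 at least 3-fold lower. Of the 779 that fell, 433 (55.6%) were at least 3-fold lower and 12 at least 3-fold higher. T, near its lowest at d2, was at 1.63 CPM there and at 6.86 CPM at d8.

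The same step in shDIS3L2, which shares no library with that of shLacZ, came from 20695661 reads at d4 and 10610122 at d6 and gave 1102 of 13237 genes at least 3-fold higher (8.33%) and 1008 at least 3-fold lower (7.62%). The line with the control shRNA thus had fewer genes past 3-fold in either direction, although a difference between the lines cannot be tested with 1 library each. The genes that rose in both lines numbered 437, which is 68.5% of the shLacZ rises and 39.7% of the shDIS3L2 rises. Those that fell in both numbered 508, which is 65.2% and 50.4%. No gene rose in shLacZ and fell in shDIS3L2, and 1 gene did the reverse. This was Kcnmb1, a potassium channel subunit of smooth muscle, with 13 and 5 reads at d4 and d6 in shLacZ, a gene singled out after its values were seen. Across 12901 genes compared in both lines, the log2 folds had a Pearson r of 0.796 and a Spearman rho of 0.732, a description over genes, which share these 4 libraries and are not independent replicates.

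Set side by side, the median of the streak list was -2.79 in shLacZ against -5.46 for the other line. List members were those with at least 1 CPM in 1 of the 2 shLacZ libraries, with no minimum in shDIS3L2. Members expressed only in shDIS3L2 are therefore missing from the list counts and medians of both lines. T was at 29.9 CPM at d6 in shLacZ, down from 486, and at 6.50 CPM in shDIS3L2, down from 795. Pou5f1 was at 117 CPM at d6 in shLacZ and 14.2 CPM in shDIS3L2, from 740.2 and 886 CPM at d4. Both genes were thus higher at d6 in the single shLacZ library than in that of shDIS3L2, whereas the summed level of the formative and primed epiblast list was 655 CPM in shLacZ and 670 CPM in shDIS3L2. The naive pluripotency list had opposite medians, 0.50 in shLacZ and -1.46 in shDIS3L2, with Esrrb at 1.19-fold and 0.349-fold and Zfp42 at 1.34-fold and 0.324-fold. The visceral endoderm list had 14 rises in shLacZ and 8 rises with 1 fall in shDIS3L2, and medians of 1.98 and 1.35. S100g was 67.6-fold higher in shLacZ and 15.5-fold in shDIS3L2, and Sox17 was at 3.31-fold and 1.01-fold. The mesenchyme list stood the other way round, with medians of 1.25 and 3.87. Postn, a member of it, was 3.60-fold higher in shLacZ and 1026-fold in shDIS3L2. The smooth muscle list had medians of -0.87 in shLacZ and 0.53 in shDIS3L2, and its member Acta2 was 2.76-fold and 103-fold higher. The shDIS3L2 ratios are given without intervals, and a ratio this large is poorly bounded where it starts from few reads.

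**Figure D5:**
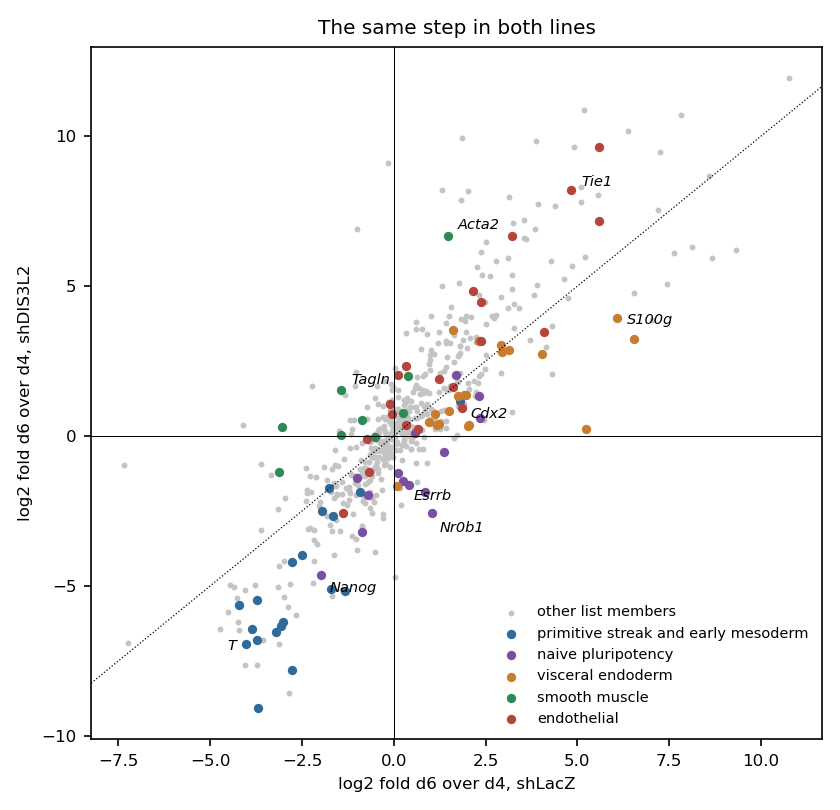
Log2 fold of d6 over d4 in shLacZ (horizontal axis) and shDIS3L2 (vertical axis) for members of the gene lists without ribosomal and mitochondrially encoded genes, 1 point per gene, with 5 lists coloured and the dotted line where both are equal. Most streak genes lie below the line and most endothelial genes above it, and Tagln and Nr0b1 lie in the quadrants of opposite sign.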

How the data were processed

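PolyA RNA of EBs was sequenced for 2 lines and 7 days, 1 library each. The deposited raw counts are reads per gene, made by the authors with Subread and featureCounts on GRCm38, and the use of strand is not given in the sources used here. The authors' deposited CPM were used as an alternative only, and their fold changes and p-values were not used. Samples were grouped by their labels. CPM was computed from the counts over the total on named genes. A gene was compared with at least 1 CPM in 1 library and called at 3-fold, with 0.25 reads added in proportion to library size. A printed fold is the ratio of CPM without this addition. A gene at 0 reads was set against a floor of 3 reads. Intervals are 95% Clopper-Pearson, and since reads carry no molecular identifiers, intervals and floors cover counting error only. The members and lists were chosen with earlier results of these data known. Named by rule were Dis3l2, up to 5 members of each list with at least 5 CPM by absolute fold, and the 10 largest rises and falls with at least 10 CPM. Other list members were named after their values were seen. Of each list, members under 1 CPM in both shLacZ libraries of the step were left out of its counts and median. The same members were used for the shDIS3L2 values. The alternatives were other scalings (TMM, DESeq2 size factors, protein-coding total, deposited CPM), other minimums, folds and prior counts, all gene types, and thinning the d6 library to the d4 total. Promoters are the RefSeq windows of 250 bases before to 50 after a start. The script was tested on simulated data. A few genes are not reported here.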

Additional observations from a re-analysis of the deposited data

Results flagged for a closer look

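Among the genes named by rule, 3 changed at least 2-fold in opposite directions in the 2 lines, with intervals on opposite sides of no change. Smaller opposite differences, such as those of Esrrb and Zfp42, were not listed here. The intervals cover counting error only, and since each value comes from a single pair of libraries, the difference was not tested. The fold of Nr0b1, a nuclear receptor of ESCs, was 2.04 in shLacZ (1.28 to 3.39) and 0.163 in shDIS3L2 (0.0320 to 0.514). That of Tagln, an actin-binding protein of smooth muscle, was 0.37 in shLacZ (0.334 to 0.411) and 2.89 in shDIS3L2 (2.70 to 3.09). That of Tubb3, a tubulin of neurons, was 0.493 in shLacZ (0.396 to 0.615) and 4.42 in shDIS3L2 (3.94 to 4.95). None of the 3 passed 3-fold in shLacZ.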

How the results depend on the processing

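The counts of 638 rises and 779 falls were within 1.5 times under TMM (691 and 718), DESeq2 size factors (661 and 688), the protein-coding total (669 and 824), thinning (645 and 787), the deposited CPM (654 and 814), a prior of 1 read, all gene types, and the demand that the interval exclude 1. They became 1728 and 1927 with no minimum CPM, 293 and 232 at 10 CPM, 1208 and 1419 at 2-fold, 300 and 393 at 5-fold, and 268 and 293 where the whole interval had to lie beyond 3-fold. The share of rises among the calls was 45.0%, 49.0% under TMM and 55.8% at 10 CPM, so that the balance turns with the minimum. The median of the cardiomyocyte list (0.27) was -0.13 under DESeq2 size factors and -0.40 at 10 CPM. At 10 CPM, 15 more list medians moved by at least 0.25, among them the primitive erythroid (2.09 to 4.89), collagen (0.11 to 1.19) and renal lists (0.03 to -0.66). With no minimum CPM but more than 3 reads in 1 library, that of the somite list (-1.46) was 0.10 and that of the collagens (0.11) was -0.016. The causes were not tested. No paired analysis was possible because each group holds 1 library and the labels carry no shared replicate numbers. No library could be left out for the same reason, and the depth at d4 limits every ratio that starts from few reads.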

Other observations

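Fendrr, a noncoding RNA transcribed beside Foxf1, went from 1.39 to 20.9 CPM (15.0-fold, 8.03 to 31.6), near the 14.1-fold of Foxf1, and was chosen after its values were seen. Of 13 hypoxia genes P4ha1, a collagen prolyl hydroxylase (43.7 to 199 CPM, 4.56-fold), and P4ha2 (3.33-fold) rose and none fell. Of 13 renal genes compared Cited1 (23.4 to 108 CPM, 4.63-fold), Hoxa11 and Hoxd11 rose and 3 fell, among them Wt1, a regulator of the kidney and the epicardium (12.6-fold lower, 4.90 to 41.3). Of 8 germline genes Piwil2 fell and none rose, and none of 11 p53 targets passed 3-fold. The germline and p53 counts are near the shares over all genes, 4.8% for rises and 5.87% for falls. The hypoxia rises and the renal rises and falls lie above these shares, in lists of 13 genes each, and this was not tested. The median log2 fold ran from -0.14 on chromosome 17 to 0.02 on chromosome 13.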
